A study of Mus musculus with 6 samples.

Results

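Enzymes that handle glutathione, aldehydes, carbonyls and reactive oxygen were compared between mouse lung epithelial cells with and without a reporter of the Piwi family gene Piwil4. The genes were chosen by symbol: those beginning with Gst, Aldh, Akr, Cbr, Fmo, Ugt1, Gpx, Prdx, Txnrd or Sod, without symbols containing -ps, plus Cat, Nqo1, Hmox1, Gclc, Gclm, Gsr, Nfe2l2 and Keap1. This gave 111 of the 48577 genes counted. Of these, 110 code for protein and 1, Prdx2-rs3, is annotated as a processed pseudogene. The symbol rule also takes in Fmod, which encodes the matrix proteoglycan fibromodulin and is no flavin monooxygenase.

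Cells came from digested lungs of C57BL/6 mice carrying the Miwi2tdTomato reporter, in which tdTomato fluorescence follows the gene for MIWI2, the protein of Piwil4. Sorting on absence of the leukocyte marker CD45 and presence of the epithelial marker EpCAM was followed by a split on tdTomato. The 3 tdTomato-positive and 3 tdTomato-negative RNA-seq libraries came from 3 mice, 1 library of each fraction per mouse, and all cells of both fractions came from reporter animals. The labels call both fractions multiciliated cells but name no gate for cilia, and they give no age. The mouse entered the main test as a block, which takes out level differences between mice. The p-values rest on how the difference between fractions varied over these 3 mice, moderated by the spread of all genes tested.

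Airway epithelium meets oxidants and foreign chemicals from inhaled air and from its own metabolism. Superoxide dismutases turn superoxide into hydrogen peroxide, which catalase, glutathione peroxidases and peroxiredoxins remove, and thioredoxin reductases and glutathione reductase return the reducing power from NADPH. Glutathione transferases and UDP-glucuronosyltransferases attach carrier groups to reactive compounds, while aldehyde dehydrogenases, aldo-keto reductases, carbonyl reductases and flavin monooxygenases oxidise or reduce them. Many of these genes are known targets of the transcription factor NRF2, encoded by Nfe2l2, which is held in check by KEAP1 and binds antioxidant response elements.

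Counts in genes were 5330584 to 6326395 per library, and 3 counts, taken as the limit that a count of 0 allows, equal 0.475 to 0.585 CPM (library-scaled counts, with TMM factors). Piwil4 was at 101, 95.7 and 111 CPM in the tdTomato-positive libraries of mice 1, 2 and 3, against 44.0, 29.97 and 45.6 CPM in the tdTomato-negative libraries. The tdTomato-positive library of mouse 1 lay far from the rest on principal component 1 (79.4, against -35.2 to 7.80). The defining markers of multiciliated cells were present in both fractions, with summed levels of 11680 to 13373 CPM in tdTomato-positive and 10459 to 10811 CPM in tdTomato-negative libraries. Of 20 such markers tested, 3 rose, against 0 with no replicate block, 4 without mouse 1, 8 without mouse 2 and 0 without mouse 3. Over all genes tested 1.36% rose, against 0.0455% with no replicate block and 2.1%, 1.23% and 0.0967% without mouse 1, 2 and 3. Over all genes 1.79% fell, or 236 of 13175, against 76 of 13175 with no replicate block. Without mouse 1, 2 and 3 the genes that fell were 354 of 13309, 215 of 13439 and 46 of 13441. Markers of other cells also differed: 12 of 16 alveolar type 2 markers fell, with sums of 626 to 1305 CPM in tdTomato-positive and 7345 to 8536 CPM in tdTomato-negative libraries. That count was 9 with no replicate block and 12 to 15 when a mouse was left out. Club cell markers rose for 8 of 17, with sums of 18143, 19566 and 4345 CPM in the tdTomato-positive and 4929, 5778 and 2522 CPM in the tdTomato-negative libraries of mice 1, 2 and 3. The club count was 0 with no replicate block and 11, 6 and 9 without mouse 1, 2 and 3. No marker of either list was at 0 in all 6 libraries, but Pdpn of the alveolar type 1 list and Cldn5 of the endothelial list were. The cause of their counts of 0 was not tested. Among the other lists, 3 of 11 alveolar type 1 markers fell, with sums of 338 to 434 CPM in tdTomato-positive and 342 to 417 CPM in tdTomato-negative libraries. Of 7 basal markers only 1, Trp63, had enough reads to test, and it fell. The list summed to 0 to 0.95 CPM in tdTomato-positive and 7.95 to 15.4 CPM in tdTomato-negative libraries. Trp63 thus passed the filter on low counts only through the tdTomato-negative libraries, which fixed the direction of its difference in advance. Of 5 leukocyte markers 1, Ptprc, fell (sums of 16.7 to 49.0 CPM in tdTomato-positive and 14.6 to 128 CPM in tdTomato-negative libraries). Of 9 mesenchymal markers 1, Sparc, fell (11.8 to 59.8 CPM in tdTomato-positive and 52.6 to 132 CPM in tdTomato-negative libraries), and 0 of 2 goblet and 0 of 4 endothelial markers passed. The alveolar type 1 count was 0 with no replicate block and without mouse 3, the leukocyte count 0 with no replicate block and without mouse 2, and the mesenchymal and basal counts 0 without mouse 3. Without mouse 1, 2 goblet markers rose and 2 mesenchymal markers fell. The part of these marker differences in the enzyme results was not tested. In such bulk samples, fewer cells of a type and less RNA per cell cannot be told apart.

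Of the 111 genes, 75 had enough reads to test. In edgeR's quasi-likelihood test with the mouse as a block, 6 rose in tdTomato-positive cells and 0 fell at a Benjamini-Hochberg adjusted p under 0.05. Cbr2, Aldh3b1, Gpx2, Prdx5 and Sod1 were among those that rose. The 6 were 8.0% of those tested, where 1.36% of all 13175 genes tested rose and 1.79% fell. The median log2 fold change (tdTomato-positive over tdTomato-negative) was 0.21 over the 75 enzymes and 0.00055 over all genes tested. In all 3 mice 23 of the 75, or 30.7%, were higher in the tdTomato-positive library, against 19.8% of all genes tested. Lower in all 3 mice were 4, or 5.33%, against 18.8% of all genes tested. Of the 75, 2 reached 10 counts in all 3 tdTomato-positive and in fewer than 2 tdTomato-negative libraries, and 0 did the reverse. Those 2 entered the test through the fraction where they were high, and the counts and the median include them. How many of all genes did so was not counted. With counts scaled by library size alone, 38 of the 75, or 50.7%, were higher in all 3 mice, against 35.5% of all genes. Lower in all 3 with that scaling were 2, or 2.67%, against 8.05%. That scaling raised the median of all genes to 0.26.

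**Figure D1:**
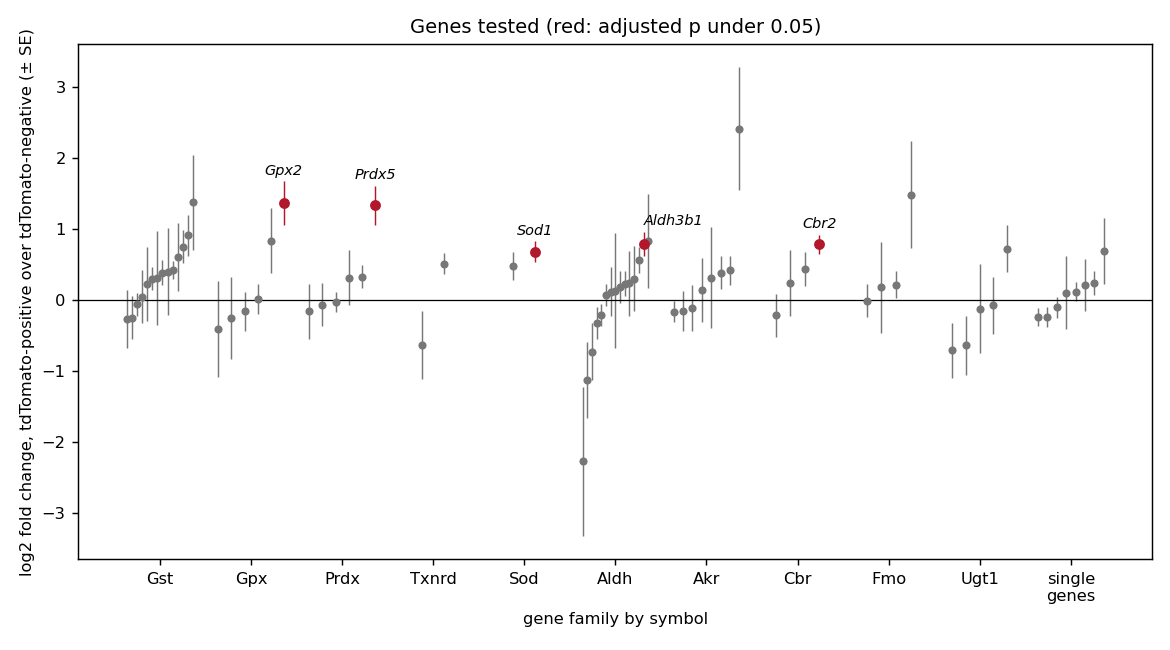
Log2 fold change of the tested genes, tdTomato-positive over tdTomato-negative, by family, with the SE of the blocked edgeR fit as bars. The 5 red genes passed the adjusted p threshold and lie above 0, between 0.68 and 1.36, while most of the grey points lie within about 1 log2 unit of 0.

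Cbr2, the carbonyl reductase of mouse lung, which reduces aldehydes and ketones with NADPH, was the most abundant of the 111 per kilobase of exon. It had 3854, 3156 and 2977 CPM in the tdTomato-positive libraries of mice 1, 2 and 3, against 2670, 1630 and 1635 CPM in the tdTomato-negative libraries. Every tdTomato-positive library lay above every tdTomato-negative one. In log2 terms this was 0.78 ± 0.131 (SE) with an edgeR adjusted p = 0.00199, a 1.72-fold difference. Of its 50-base stretches 12.1% recur in other genes, chiefly the predicted gene Gm11771. The gene lies at chr11:120729489-120732114 (GRCm38, minus strand).

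Aldh3b1 encodes an aldehyde dehydrogenase that oxidises aldehydes formed when lipids are peroxidised (chr19:3913491-3929808, minus strand). It was at 143, 94.0 and 91.3 CPM in the tdTomato-positive libraries of mice 1, 2 and 3 and at 96.2, 46.9 and 52.3 CPM in the tdTomato-negative ones. Each mouse was higher in its tdTomato-positive library, but the fractions overlapped, because the tdTomato-negative library of mouse 1 exceeded the tdTomato-positive libraries of mice 2 and 3. The fitted change was 0.79 ± 0.172 on the log2 scale (SE) with an edgeR adjusted p = 0.0152.

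Other enzymes that rose act on peroxides and superoxide. Gpx2, the selenium-containing glutathione peroxidase of epithelia (chr12:76792333-76795554, minus strand), was at 25.7, 21.7 and 18.6 CPM in the tdTomato-positive libraries, against 10.7, 7.11 and 7.99 CPM in the tdTomato-negative ones. That is a log2 fold change of 1.36 ± 0.308 (SE) with an edgeR adjusted p = 0.0193, with no overlap between the fractions. Prdx5, a peroxiredoxin of mitochondria, peroxisomes and cytosol (chr19:6906697-6910106, minus strand), had 51.3, 38.3 and 53.5 CPM in tdTomato-positive and 27.7, 20.4 and 10.9 CPM in tdTomato-negative libraries. Again the fractions did not overlap, and mouse 3 differed most, with a log2 ratio of 2.29 against 0.89 and 0.91 in mice 1 and 2. Prdx5 had a fitted log2 fold change of 1.33 ± 0.276 (SE) with an edgeR adjusted p = 0.0106. Exons of Trmt112 on the other strand overlap Prdx5 over 409 bases, and since the strand setting of the counting is not given in the sources used here, reads from the overlap cannot be assigned to either gene with certainty.

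Sod1, the copper and zinc superoxide dismutase of the cytosol (chr16:90220754-90226329, plus strand), had 263, 165 and 156 CPM in the tdTomato-positive libraries of mice 1, 2 and 3. The tdTomato-negative libraries had 153, 106 and 102 CPM. Mouse 1 was highest in both fractions, and no tdTomato-negative library reached the lowest tdTomato-positive one. Sod1 had a log2 fold change of 0.68 ± 0.148 (SE) with an edgeR adjusted p = 0.0156. Its log2 ratios were 0.78, 0.64 and 0.61 in mice 1, 2 and 3.

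**Figure D2:**
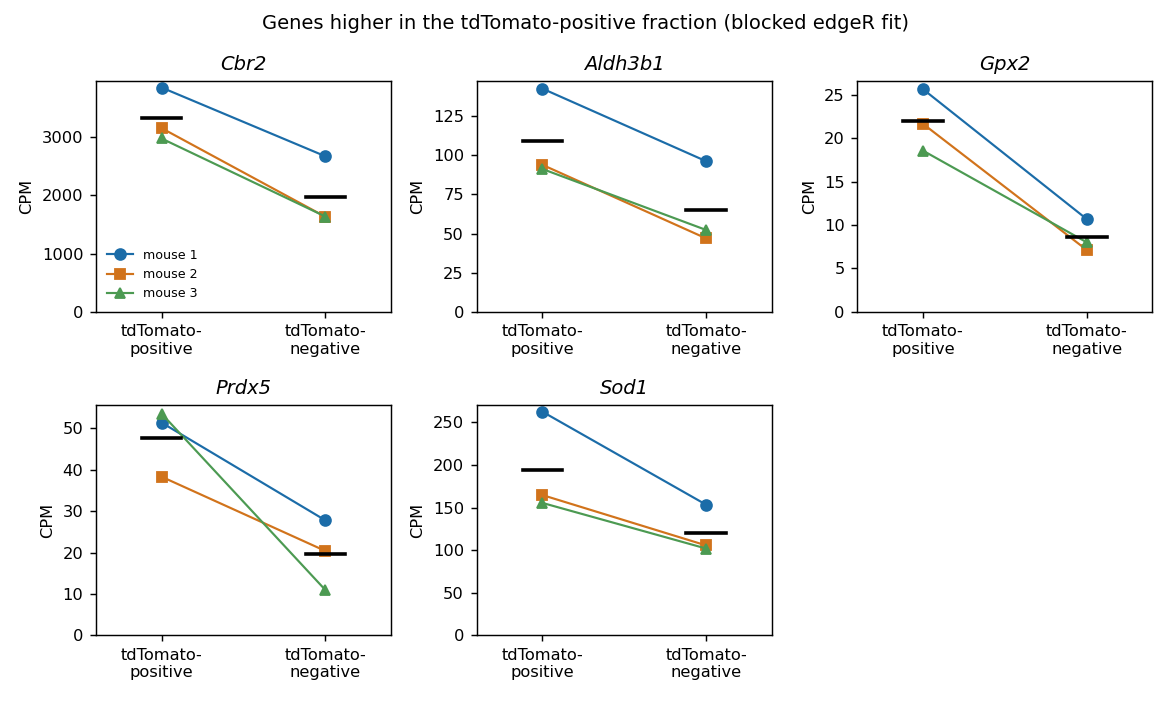
CPM of 5 genes that rose, with tdTomato-positive libraries left of tdTomato-negative ones in each panel; a line joins the libraries of 1 mouse and a black bar marks the mean of 3. Every line falls toward the right, while the fractions overlap for Aldh3b1.

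These calls depended on the model and on mouse 3. Without the mouse block none of the 6 passed (edgeR adjusted p = 0.0912 for Gpx2 to 0.390 for Aldh3b1 over the 5 named), where 0.0455% of all genes rose. Without mouse 3 none passed either (adjusted p = 0.295 for Gpx2 to 0.385 for Prdx5 over the 5 named), where 0.0967% of all genes rose, and the 5 named kept their sign with log2 fold changes of 0.71 to 1.43. Sod1 was also lost without mouse 1 (adjusted p = 0.0723), where 2.1% of all genes rose, and Gpx2 without mouse 2 (adjusted p = 0.0871), where 1.23% rose.

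The start regions of the 5 named genes that rose are shown with those of Gclm and Prdx1, NRF2 targets that did not pass the test, to compare their letters at the antioxidant response element core. Windows of 300 bases, 250 before and 50 after the gene start, came from RefSeq on GRCm38.p6 and were found for 91 of the 111 genes. The core TGACNNNGC was sought on both strands and is in capitals where it was found; on the minus strand it reads GCNNNGTCA.
Cbr2 promoter, chr11:120731972-120732271, minus strand: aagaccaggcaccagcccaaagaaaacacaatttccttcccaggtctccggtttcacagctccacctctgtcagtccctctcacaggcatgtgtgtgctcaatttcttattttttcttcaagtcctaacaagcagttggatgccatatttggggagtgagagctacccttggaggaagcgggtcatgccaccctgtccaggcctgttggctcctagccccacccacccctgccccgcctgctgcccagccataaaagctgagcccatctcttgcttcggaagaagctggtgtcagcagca
Aldh3b1 promoter, chr19:3929729-3930028, minus strand: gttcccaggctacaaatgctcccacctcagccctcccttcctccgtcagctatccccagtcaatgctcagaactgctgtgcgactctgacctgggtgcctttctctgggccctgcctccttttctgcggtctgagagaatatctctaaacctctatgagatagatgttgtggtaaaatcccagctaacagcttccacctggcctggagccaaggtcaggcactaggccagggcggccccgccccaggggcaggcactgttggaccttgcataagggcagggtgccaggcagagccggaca
Gpx2 promoter, chr12:76795505-76795804, minus strand: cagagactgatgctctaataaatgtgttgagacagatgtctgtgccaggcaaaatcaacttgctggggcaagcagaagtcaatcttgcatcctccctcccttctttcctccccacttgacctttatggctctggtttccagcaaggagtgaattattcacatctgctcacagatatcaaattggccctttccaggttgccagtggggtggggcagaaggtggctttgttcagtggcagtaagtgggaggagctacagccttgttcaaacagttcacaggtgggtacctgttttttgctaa
Prdx5 promoter, chr19:6910057-6910356, minus strand: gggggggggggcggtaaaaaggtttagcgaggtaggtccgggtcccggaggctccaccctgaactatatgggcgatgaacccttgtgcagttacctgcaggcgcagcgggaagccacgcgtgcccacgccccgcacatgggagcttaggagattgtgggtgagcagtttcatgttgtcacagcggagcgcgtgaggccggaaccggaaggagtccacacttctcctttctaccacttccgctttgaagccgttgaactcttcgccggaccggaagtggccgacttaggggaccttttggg
Sod1 promoter, chr16:90220512-90220811, plus strand: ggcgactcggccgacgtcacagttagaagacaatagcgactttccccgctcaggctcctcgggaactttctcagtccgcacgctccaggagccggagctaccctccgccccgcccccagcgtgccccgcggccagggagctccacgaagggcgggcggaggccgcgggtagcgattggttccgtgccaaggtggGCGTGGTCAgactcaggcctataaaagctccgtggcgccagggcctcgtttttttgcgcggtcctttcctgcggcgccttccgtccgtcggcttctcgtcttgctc
Gclm promoter, chr3:122245307-122245606, plus strand: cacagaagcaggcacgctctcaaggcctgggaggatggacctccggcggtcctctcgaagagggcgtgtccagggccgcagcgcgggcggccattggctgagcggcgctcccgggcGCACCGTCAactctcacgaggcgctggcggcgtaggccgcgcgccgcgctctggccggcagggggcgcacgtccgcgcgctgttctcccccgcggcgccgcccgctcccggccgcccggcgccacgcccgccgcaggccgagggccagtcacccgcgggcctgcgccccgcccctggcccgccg
Prdx1 promoter, chr4:116685349-116685648, plus strand: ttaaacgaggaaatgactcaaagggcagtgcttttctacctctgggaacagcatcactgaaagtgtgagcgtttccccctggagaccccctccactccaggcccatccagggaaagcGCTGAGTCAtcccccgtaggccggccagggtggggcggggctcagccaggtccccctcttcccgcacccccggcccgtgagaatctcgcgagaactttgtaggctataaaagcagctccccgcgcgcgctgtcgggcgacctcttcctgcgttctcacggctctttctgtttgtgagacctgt

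Among these 5 windows, only that of Sod1 held the core, with its first base 56 bases before the gene start. It lay 134 bases before the start of Gclm and 133 before that of Prdx1. The window of Nqo1, a classical NRF2 target that also did not pass, held no core. Other windows with the core were those of Aldh1a2, Aldh9a1, Gsta3, Gstm5, Gstm7, Nfe2l2, Txnrd1, Akr1c19 and Akr1cl. In all, 12 of 108 windows of these enzymes held the core, or 11.1%, against 12.4% of 32851 windows of the same length across genes. A match is a match of letters only, and elements outside these windows were not searched.

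Glutathione transferases were the largest group, with 22 genes, of which 14 were tested and 0 passed. Gstm1, of the mu class, ranked 2 by level per kilobase among the 111. It had 2658, 913 and 890 CPM in the tdTomato-positive libraries of mice 1, 2 and 3, against 2043, 634 and 700 CPM in the tdTomato-negative libraries. All 3 mice were higher in the tdTomato-positive fraction by similar log2 ratios of 0.38, 0.53 and 0.35, but mouse 1 stood far above mice 2 and 3 in both fractions. This gave a log2 fold change of 0.42 ± 0.125 (SE) with an edgeR adjusted p = 0.0862. With limma-voom, where 2.07% of all genes rose, and with no filter on low counts, where 1.16% rose, Gstm1 passed (adjusted p = 0.0238 and 0.0463).

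Gstz1, the zeta class enzyme of tyrosine breakdown, was at 98.5, 141 and 131 CPM in tdTomato-positive and 89.6, 113 and 96.5 CPM in tdTomato-negative libraries. Gsta4, which conjugates the lipid aldehyde hydroxynonenal, had 79.5, 99.5 and 103 CPM in tdTomato-positive and 75.7, 112 and 109 CPM in tdTomato-negative libraries. The ranges of both overlapped between fractions, with log2 fold changes of 0.30 (edgeR adjusted p = 0.380) and -0.06 (edgeR adjusted p = 0.895). Across the 14 the log2 fold changes ran from -0.27 to 1.38 with a median of 0.35, and 11 were above 0. Scaled by library size alone, where 4.87% of all genes rose, Gstm1, Gstm2 and Gsta3 passed, as did Aldh2, Sod2 and Txnrd1 in other families.

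Glutathione is made by glutamate-cysteine ligase, whose catalytic subunit is encoded by Gclc and whose modifier subunit by Gclm. Gclc had 396, 367 and 504 CPM in tdTomato-positive and 386, 509 and 612 CPM in tdTomato-negative libraries, and ranked 6 per kilobase. Gclm had 131, 131 and 162 CPM in tdTomato-positive and 138, 159 and 158 CPM in tdTomato-negative libraries. Both overlapped between fractions, with log2 fold changes of -0.24 ± 0.140 and -0.10 ± 0.152 (SE; edgeR adjusted p = 0.430 and 0.792). With library size scaling alone these were 0.02 and 0.15. Gsr, the reductase that returns oxidised glutathione to its reduced form, was at 87.0, 92.1 and 119 CPM in tdTomato-positive and 84.2, 80.1 and 85.8 CPM in tdTomato-negative libraries. Its fractions did not overlap, yet the log2 fold change of 0.24 did not pass (edgeR adjusted p = 0.529).

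The transcription factor gene Nfe2l2 was abundant, at 797, 603 and 627 CPM in tdTomato-positive and 715, 537 and 611 CPM in tdTomato-negative libraries. Higher by little in each mouse, it had a log2 fold change of 0.12 (95% interval -0.15 to 0.39; edgeR adjusted p = 0.703). Keap1, its inhibitor, was low, with 9.29, 5.38 and 13.7 CPM in tdTomato-positive and 6.79, 6.53 and 3.51 CPM in tdTomato-negative libraries. The classical target genes Nqo1, a quinone reductase, and Hmox1, the inducible heme oxygenase, were low as well. Nqo1 had 5.74, 3.48 and 5.72 CPM in tdTomato-positive and 2.72, 5.76 and 5.65 CPM in tdTomato-negative libraries. Hmox1 had 12.7, 7.75 and 10.5 CPM in tdTomato-positive and 12.4, 8.45 and 6.24 CPM in tdTomato-negative libraries. For these low genes the 95% intervals of the log2 fold change were wide, from -0.98 to 1.19 for Nqo1, -0.56 to 0.98 for Hmox1 and -0.29 to 1.67 for Keap1.

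Catalase was among the most abundant, with rank 4 per kilobase. Cat had 974, 543 and 606 CPM in the tdTomato-positive libraries of mice 1, 2 and 3, against 1005, 734 and 716 CPM in the tdTomato-negative libraries. Each mouse was lower in its tdTomato-positive library, but the log2 fold change of -0.24 ± 0.132 did not pass (SE; edgeR adjusted p = 0.399) and was 0.02 with library size scaling alone. Sod2, the manganese superoxide dismutase of mitochondria, had 110, 49.8 and 58.9 CPM in tdTomato-positive and 57.8, 46.9 and 44.1 CPM in tdTomato-negative libraries. Mouse 1 carried most of that difference, and the log2 fold change was 0.48 (edgeR adjusted p = 0.243). Sod3, the extracellular form, had at most 7 reads in a library and was not tested.

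Of the other glutathione peroxidases, Gpx8, an enzyme of the endoplasmic reticulum, had 38.0, 46.7 and 63.4 CPM in tdTomato-positive and 44.6, 54.4 and 45.4 CPM in tdTomato-negative libraries. Gpx1, the widely expressed cytosolic enzyme, had 16.7, 18.04 and 35.9 CPM in tdTomato-positive and 22.3, 27.5 and 25.0 CPM in tdTomato-negative libraries. Neither passed (edgeR adjusted p = 0.988 and 0.833), and of the 6 tested in this family Gpx2 was the 1 that rose. Whether its difference exceeded theirs was not tested.

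Prdx5 was likewise the 1 of 6 tested peroxiredoxins that rose. Prdx6, which reduces phospholipid peroxides, had 247, 287 and 243 CPM in tdTomato-positive and 257, 262 and 272 CPM in tdTomato-negative libraries. The log2 fold change was -0.03, with a 95% interval of -0.32 to 0.26. Prdx1, a cytosolic peroxiredoxin, had 281, 140 and 207 CPM in tdTomato-positive and 177, 148 and 158 CPM in tdTomato-negative libraries, higher in 2 of 3 mice (log2 fold change 0.33; edgeR adjusted p = 0.340). Txnrd1, the cytosolic thioredoxin reductase, was steadier across mice. It had 144, 181 and 205 CPM in tdTomato-positive and 100, 127 and 147 CPM in tdTomato-negative libraries, with log2 ratios of 0.52, 0.51 and 0.48 in mice 1, 2 and 3. Its log2 fold change of 0.51 ± 0.148 had the smallest p of the enzymes that did not pass (SE; edgeR adjusted p = 0.0767). Txnrd3 had 1.86, 6.96 and 6.35 CPM in tdTomato-positive and 6.40, 5.57 and 9.75 CPM in tdTomato-negative libraries.

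Aldehyde dehydrogenases held 21 genes, 15 of them tested. Aldh1a1, which makes retinoic acid from retinaldehyde and ranked 3 per kilobase among the 111, had 2044, 1395 and 2294 CPM in tdTomato-positive and 1886, 1858 and 1621 CPM in tdTomato-negative libraries. Mouse 2 was lower and mice 1 and 3 higher in the tdTomato-positive fraction, with a log2 fold change of 0.07 (95% interval -0.26 to 0.39; edgeR adjusted p = 0.874). Aldh6a1, an enzyme of valine breakdown, had 117, 147 and 137 CPM in tdTomato-positive and 131, 148 and 186 CPM in tdTomato-negative libraries. Aldh3a2, the fatty aldehyde dehydrogenase, had 84.6, 89.1 and 141 CPM in tdTomato-positive and 71.6, 98.9 and 93.4 CPM in tdTomato-negative libraries. Both overlapped between fractions and did not pass (edgeR adjusted p = 0.552 and 0.574). Exons of Bbof1 on the other strand overlap Aldh6a1 over 1078 bases, so the limit given for Prdx5 holds for Aldh6a1 too. Log2 fold changes of the family ran from -2.27, for the scarce Aldh1l1 (named after its value was seen), to 0.83, and the median was 0.13.

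Among 17 aldo-keto reductases, 8 were tested and 0 passed. Akr1c14, a hydroxysteroid dehydrogenase, had 180, 99.7 and 172 CPM in tdTomato-positive and 173, 129 and 193 CPM in tdTomato-negative libraries. Akr1a1, the aldehyde reductase, had 79.7, 59.0 and 92.4 CPM in tdTomato-positive and 59.6, 62.6 and 48.9 CPM in tdTomato-negative libraries. Akr1b8 was higher in the tdTomato-positive library of all 3 mice, at 35.0, 29.7 and 28.6 CPM in tdTomato-positive libraries against 25.0, 24.8 and 21.4 CPM in tdTomato-negative libraries. Adjusted p-values of the 3 were 0.656, 0.331 and 0.460 (edgeR). The largest estimate of all 75, 2.41 for Akr1c12, rested on 0 to 4.92 CPM and did not pass (edgeR adjusted p = 0.157). Akr1c12 was named after its value was seen. It reached 10 counts in 3 tdTomato-positive and 0 tdTomato-negative libraries, so it entered the test through the tdTomato-positive fraction. Of its 50-base stretches 28.6% recur in Akr1c13.

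Cbr1, the cytosolic carbonyl reductase, had 36.5, 19.9 and 36.7 CPM in tdTomato-positive and 24.8, 15.8 and 27.7 CPM in tdTomato-negative libraries. Cbr4, a mitochondrial reductase, had 16.4, 15.3 and 12.5 CPM in tdTomato-positive and 15.7, 16.1 and 19.5 CPM in tdTomato-negative libraries. Their log2 fold changes, 0.44 and -0.22, did not pass (edgeR adjusted p = 0.397 and 0.783), and Cbr2 made up nearly all of the summed carbonyl reductase CPM. Of the flavin monooxygenases, Fmo2, the main form in the lung of many mammals, had 66.7, 78.3 and 24.6 CPM in tdTomato-positive and 61.7, 61.9 and 21.6 CPM in tdTomato-negative libraries. Fmo5 had 33.8, 26.1 and 34.3 CPM in tdTomato-positive and 26.4, 29.6 and 39.2 CPM in tdTomato-negative libraries. Neither passed (edgeR adjusted p = 0.630 and 0.992), and mouse 3 was low for Fmo2 in both fractions.

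The Ugt1 genes encode glucuronosyltransferases from 1 locus on chromosome 1, where first exons of each gene join the same final exons. Their counts are uncertain, since 53.7% to 79.8% of the 50-base stretches of the 3 most abundant, Ugt1a6b, Ugt1a5 and Ugt1a7c, recur in other genes. Ugt1a6b had 27.2, 8.07 and 15.2 CPM in tdTomato-positive and 12.2, 6.53 and 9.75 CPM in tdTomato-negative libraries. Ugt1a5 had 4.56, 19.0 and 8.89 CPM in tdTomato-positive and 10.7, 11.9 and 7.80 CPM in tdTomato-negative libraries. Ugt1a7c had 6.25, 4.11 and 8.58 CPM in tdTomato-positive and 10.7, 10.2 and 7.80 CPM in tdTomato-negative libraries. None of the 5 tested passed, with edgeR adjusted p-values of 0.296 or more.

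Summed over each family, the levels showed where the enzyme RNA lay. Carbonyl reductases summed to 3382 ± 470 CPM in tdTomato-positive and 2025 ± 604 CPM in tdTomato-negative libraries (SD, n = 3 each), and aldehyde dehydrogenases to 2493 ± 479 CPM in tdTomato-positive and 2324 ± 126 CPM in tdTomato-negative libraries. Glutathione transferases summed to 1923 ± 1021 CPM in tdTomato-positive and 1487 ± 786 CPM in tdTomato-negative libraries, the wide SD coming from Gstm1 in mouse 1. Cbr2, Aldh1a1 and Gstm1 together held 56.0% to 62.1% of the summed CPM of the 111 genes in tdTomato-positive and 47.0% to 59.0% in tdTomato-negative libraries. The sums of carbonyl reductases, glutathione transferases, peroxiredoxins, superoxide dismutases and thioredoxin reductases were higher in the tdTomato-positive library of all 3 mice, with ratios of 1.04 to 1.92. These sums were not tested, and with library size scaling alone every family sum was higher in all 3 mice, with ratios of 1.09 to 2.63.

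**Figure D3:**
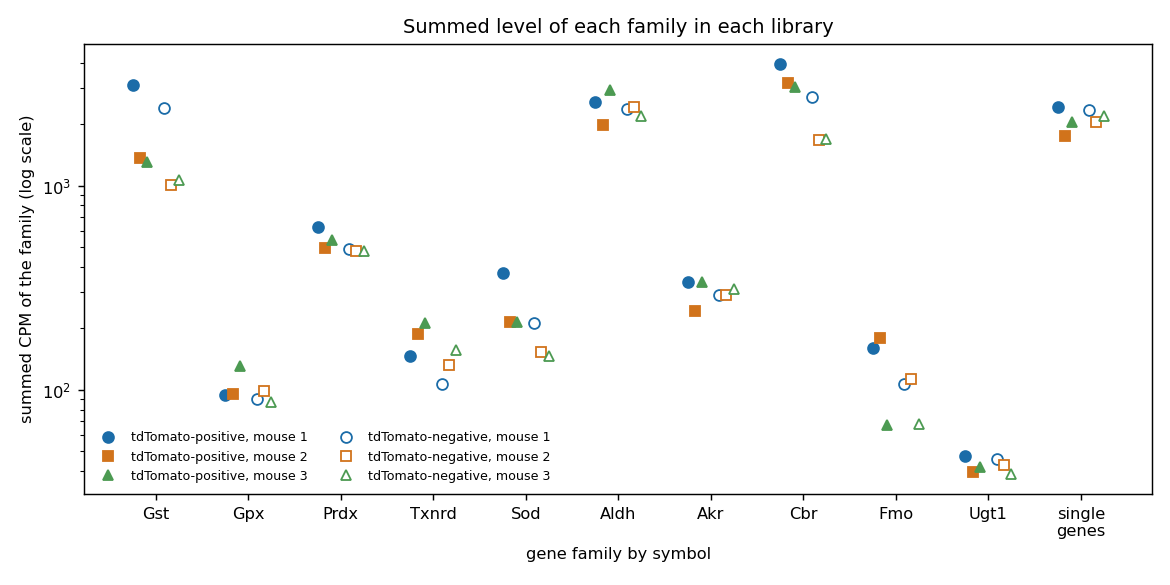
Summed CPM of each family in each library on a log axis, tdTomato-positive libraries (filled) left of tdTomato-negative ones (open), with a marker shape and colour for each mouse. Carbonyl reductases lie higher in tdTomato-positive libraries in each mouse, glutathione transferases are highest in mouse 1 in both fractions, and flavin monooxygenases are lowest in mouse 3.

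Some enzymes also differed between mice. A test of the mouse term in the same edgeR fit, added after the data were seen, called 5 of the 75 against 2.6% of all genes, among them Gstm1, Akr1e1, Fmo2 and Cat, with edgeR adjusted p-values of 4.49e-06, 0.00111, 0.0013 and 0.0486 in that order. Gstm1 and Cat were highest in mouse 1 in both fractions, and Fmo2 was lowest in mouse 3. Akr1e1, an aldo-keto reductase named because of this test, had 4.39, 18.04 and 3.18 CPM in the tdTomato-positive libraries of mice 1, 2 and 3, against 1.55, 32.5 and 2.34 CPM in the tdTomato-negative ones. It was thus high in both libraries of mouse 2. The labels used here give no day of preparation, so an animal and its preparation cannot be told apart.

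**Figure D4:**
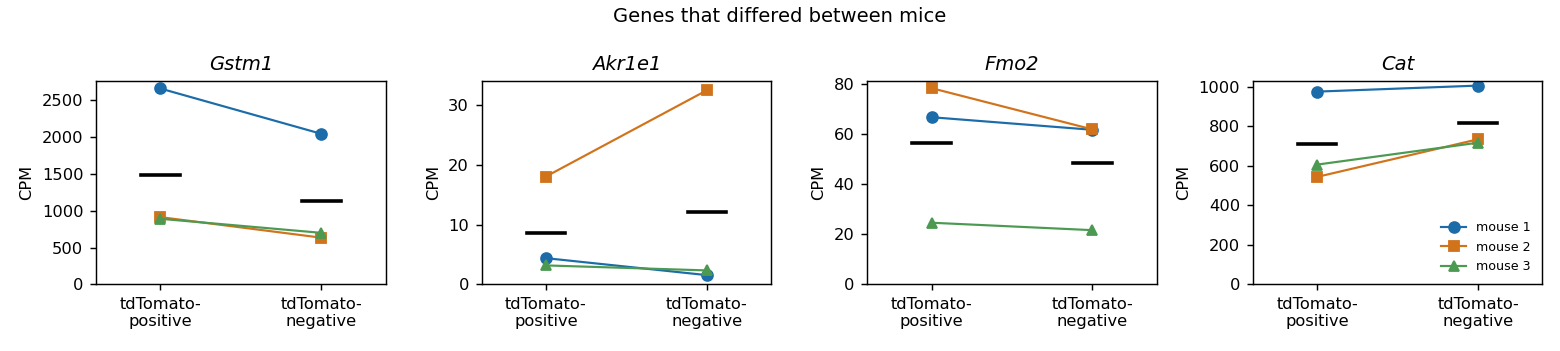
CPM of 4 of the 5 enzymes that differed between mice, with tdTomato-positive libraries left of tdTomato-negative ones; lines join the libraries of 1 mouse and black bars mark means of 3. Gstm1 and Cat are highest in mouse 1, Akr1e1 in mouse 2, and Fmo2 is lowest in mouse 3, in both fractions.

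Genes that work with these enzymes were counted from 7 lists of 107 genes, 83 of them tested. Of these, 2 rose and 0 fell, against 1.36% and 1.79% of all genes, and their median log2 fold change was 0.08. Ftl1, the light chain of the iron store ferritin, was at 283, 108 and 106 CPM in tdTomato-positive and 175, 52.4 and 50.1 CPM in tdTomato-negative libraries (log2 fold change 0.93; edgeR adjusted p = 0.0027). Mgst3, a membrane-bound glutathione transferase and peroxidase, had 41.0, 22.2 and 16.2 CPM in tdTomato-positive and 15.3, 8.26 and 8.19 CPM in tdTomato-negative libraries (log2 fold change 1.28; edgeR adjusted p = 0.0192). Mouse 1 was highest in both fractions for each, and neither passed without the block (adjusted p = 0.699 and 0.248) or without mouse 3 (0.233 for both). Mgst3 was also lost without mouse 2 (adjusted p = 0.0607), and Ftl1 has processed pseudogenes in the mouse genome, which makes its counts uncertain.

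In the list on glutathione synthesis, turnover and reduction 0 of 17 passed, and its smallest p-values belonged to Slc3a2, a chain of the cystine transporter, and Glrx2, a mitochondrial glutaredoxin (edgeR adjusted p = 0.286 and 0.461). In the membrane transferase list 1 of 5 passed, Mgst3, followed by Ptges2 (0.384). The thioredoxin list had 0 of 12, led by thioredoxin itself, Txn1, and the sulfiredoxin Srxn1 (0.136 and 0.285). NADPH supply had 0 of 11, led by Nnt, the mitochondrial transhydrogenase, and Pgd, of the pentose phosphate pathway (0.0827 and 0.0846). Nnt was lower in tdTomato-positive libraries, at 8.11, 15.03 and 16.2 CPM against 26.6, 25.9 and 24.6 CPM in tdTomato-negative ones, and the ranges did not overlap. Pgd was at 84.8, 78.5 and 63.5 CPM in tdTomato-positive and 55.3, 46.7 and 46.2 CPM in tdTomato-negative libraries.

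The NRF2 partner list had 0 of 10, led by Sqstm1, the autophagy adaptor that binds KEAP1, and Mafk, a small MAF partner of NRF2 (edgeR adjusted p = 0.0869 and 0.0949). Heme breakdown and ferritin had 1 of 5, Ftl1, followed by the biliverdin reductase Blvrb (0.834). Among other xenobiotic metabolism and efflux genes 0 of 23 passed, and the smallest p-values were those of Por, the electron donor of cytochromes P450, and Nr1i2, the pregnane X receptor (0.0868 and 0.0972). Por had 155, 176 and 167 CPM in tdTomato-positive and 137, 82.6 and 117 CPM in tdTomato-negative libraries, with no overlap between fractions.

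The 36 genes that were not tested included 27 with some reads, at most 35 in a library, and 9 with 0 reads in all 6 libraries. The 9 were Akr1c20, Akr1cl, Fmo9, Gpx5, Gpx6, Gstp1, Gstp2, Txnrd2 and Ugt1a10. As far as counting error goes, a count of 0 allows up to 0.475 to 0.585 CPM; it sets no limit where reads of a gene were not counted to it. Gstp1 and Gstp2 share 33.7% and 54.3% of their 50-base stretches with other genes, largely with each other and a pseudogene, and reads placed at several sites were given to no gene. Txnrd2, also at 0, shares 2.72%. The cause of these counts of 0 was not tested, and they say only that no read was counted. Over 20% of such stretches were shared for 20 of the 111 genes, among them Gpx4, the phospholipid peroxidase, at 34.7% with 5.85 to 7.94 CPM in tdTomato-positive and 3.31 to 4.85 CPM in tdTomato-negative libraries. Exons of another gene overlap 31 of the 111. Among them on the other strand are Keap1 (Gm16754, 510 bases), Gstz1 (Pomt2, 465 bases) and Gclm (Gm17494, 296 bases). The limit given for Prdx5 holds for these too. On the same strand, Gclm overlaps Gm6061 over 244 bases.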

How the data were processed

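Total RNA was amplified (Ovation kit) before TruSeq Nano library preparation, per the labels' protocols. The authors deposited raw read counts per gene symbol. Per the submitters' processing notes, STAR 2.4.2a, cutadapt 1.7.1, FastQC, DESeq2 and HTSeq were used, with GRCm38.p4 and mm10; the HTSeq version and strand setting are not given in the sources used here. The 5 HTSeq summary rows per file were left out of library sizes: reads in no gene were 41.0% to 49.4% of each file, ambiguous reads 1.31% to 1.99% and reads aligned to several places 8.26% to 12.0%.

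From the deposited counts, edgeR 4.0.16 in R 4.3.3 gave CPM with TMM factors and two-sided quasi-likelihood tests (robust) over the 13175 genes kept by filterByExpr (count minimum 10), with the mouse as a replicate block. Pairing comes from the individual labels; deviations from group means correlated at 0.254 to 0.346 within mice. Adjusted p-values are Benjamini-Hochberg over all genes tested. Intervals are 95% and floors are 3 counts per library. The fits were tested on simulated data. Alternatives were no block, library size only, RLE factors, no filter, stricter filters, DESeq2 1.42.0, limma-voom (limma 3.58.1) and leaving out each mouse.

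The enzymes, lists, markers and tests were chosen with earlier results of these data known. Values per library are given for enzymes that passed, the 8 single genes and the 3 most abundant of each family (1 enzyme is not reported here); for lists, genes that passed and the 2 smallest p-values. Positions, exon lengths and overlaps are GENCODE M21 on GRCm38. Reads were amplified and carry no molecular identifiers, so floors cover counting error only.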

Additional observations from a re-analysis of the deposited data

How the results depend on the processing

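The count of enzymes that rose, 6 with the replicate block, was 0 with no replicate block and 12 with library size only, and ran from 0 to 5 when a mouse was left out. Over all genes the 179 that rose became 6 with no replicate block, 641 with library size only, 327 with no filter and 273 with limma-voom, and 13 to 279 when a mouse was left out. The 236 that fell became 76 with no replicate block and 46 to 354 when a mouse was left out. In the pathway lists the 2 that rose became 0 with no replicate block, 10 with library size only, 5 with no filter and 0 to 7 without a mouse, and the 0 that fell became 2 with no filter, 1 with DESeq2 and 0 to 2 without a mouse. All 6 enzymes passed with RLE factors, DESeq2, limma-voom, library size only, no filter, a count minimum of 30 and without mitochondrially encoded genes; the last 2 settings were chosen after seeing the data. The planned stricter filter of 1 CPM in 3 libraries removed no gene. No log2 fold change of a called enzyme changed sign under these settings. The cause of the losses without mouse 3 or without the block was not tested. Genes with low CPM had wide intervals at this depth, and this held above 5 CPM too, as for Hmox1.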
